A study of Mus musculus with 3 samples.

Results

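The transcription factor genes that set cartilage against bone fate were described in single cells of the day 7 fracture callus of mice. The group holds 9 genes, taken by name from the 32285 genes of the count tables: the cartilage factors Sox9, Sox5 and Sox6, the bone factors Runx2 and Sp7, and the homeobox factors Dlx3, Dlx5, Dlx6 and Msx2. The rows were matched by name, and all 9 have a row. The 9 genes themselves were chosen with earlier results of these data known. In the chondrocyte-like cells, 7 of the 9 had enough molecules (at least 50 unique molecular identifiers, UMIs, over a pair of libraries) to be compared between libraries. Dlx3 and Msx2 did not.

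In skeletal development SOX9, helped by SOX5 and SOX6, drives mesenchymal cells into cartilage and switches on genes of cartilage matrix such as Col2a1 and Acan. RUNX2 acts both in chondrocytes that enlarge before ossification and in the osteoblast lineage, and SP7 (osterix) acts downstream of RUNX2 in bone formation. The DLX and MSX proteins are homeodomain factors with roles in skeletal patterning and in osteoblast differentiation. A fracture callus heals largely through cartilage that is later replaced by bone.

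The mice were female C3H/HeJ animals of 9 weeks with a pinned fracture of the femoral shaft, and each group received daily subcutaneous injections. The groups were YKL (YKL-05-099, an inhibitor of salt-inducible kinases, 15 mg/kg), PTH (parathyroid hormone 1-34, 100 µg/kg) and Control (PBS vehicle). Callus cells were released with collagenase on day 7, keeping clear of marrow, and 1 droplet library with 3′ tags stands for each group. The labels do not say how many animals went into a library.

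After filtering, 603 YKL, 1912 PTH and 2908 Control cells were kept. Their median depth was 25813 UMIs in YKL, 12290.5 in PTH and 11647 in Control. Of these, 430 YKL, 728 PTH and 1584 Control cells were chondrocyte-like by their markers, and 13 YKL, 55 PTH and 22 Control cells were osteoblast lineage-like. With 1 library per group there was no test between treatments; every interval below is a 95% interval for counting error and none covers the spread between animals. Levels are sums over the cells of a class, in which less RNA per cell and fewer expressing cells cannot be told apart. Kept barcodes that also occurred in another library numbered 0 in YKL, 2 in PTH and 4 in Control. Barcodes with more than 10% mitochondrial RNA were left out; they made up 18.5% of barcodes in YKL, 44.5% in PTH and 17.6% in Control.

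Of the 7 members compared, Runx2 and Sox5 were those for which the YKL and Control libraries stood furthest apart, and the stretch of 250 bases before their RefSeq start (GRCm38.p6) is shown for that reason. It was read for the core RUNX motif TGTGGT, which reads as ACCACA on the other strand, and the SOX motif ACAAAG, which reads as CTTTGT on the other strand; the motifs can overlap by 3 bases. Matches are in capitals.
Runx2, chr17:44814628-44814877, minus strand: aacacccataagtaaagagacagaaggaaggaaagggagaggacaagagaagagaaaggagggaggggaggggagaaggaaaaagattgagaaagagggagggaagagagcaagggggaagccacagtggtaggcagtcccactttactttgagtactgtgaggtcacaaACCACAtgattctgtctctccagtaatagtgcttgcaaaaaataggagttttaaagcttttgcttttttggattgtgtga
Sox5, chr6:143947107-143947356, minus strand: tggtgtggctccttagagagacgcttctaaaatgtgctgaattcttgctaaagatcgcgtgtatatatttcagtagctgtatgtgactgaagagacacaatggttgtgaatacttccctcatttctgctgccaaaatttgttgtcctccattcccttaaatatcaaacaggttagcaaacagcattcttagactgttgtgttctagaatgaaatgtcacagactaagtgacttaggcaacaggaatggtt
The Runx2 stretch held 1 RUNX match, read on the opposite strand, whose first base lies 80 bases before the start, and no SOX match. The Sox5 stretch held neither of the strings searched. Only these exact letters were searched, so other forms of a RUNX or SOX site are not covered. Of 32851 stretches of this length in the RefSeq table, 14.0% held the RUNX and 16.5% the SOX letters. These are descriptions of letters, with no binding measurement behind them. The table held 4 of the 9 genes (Sox5, Sox6, Runx2 and Msx2).

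In GENCODE M21 (GRCm38, the assembly of mm10), Runx2 spans chr17:44495987-44814797 and Sox5 chr6:143828425-144781977, both on the minus strand, so that the Sox5 stretch lies inside the annotated span of its gene and the Runx2 stretch runs over its upstream edge. Sox9 lies at chr11:112782224-112787760 (plus strand), Sox6 at chr7:115470872-116038796 (minus), Sp7 at chr15:102356606-102367182 (minus), Dlx3 at chr11:95120119-95125296 (plus) and Msx2 at chr13:53466884-53473074 (minus). Dlx5 (chr6:6877805-6882085, minus) and Dlx6 (chr6:6863334-6868568, plus) are neighbours. Supt3 and Runx2os1, which overlap Runx2 on the opposite strand, had 1157 and 423 UMIs in the kept cells beside 5434 of Runx2. Likewise, Dlx6os1 had 307 beside 709 of Dlx6, and Sox6os 72 beside 6675 of Sox6. Whether the counting used strand is not stated in the labels or file headers. Without strand, reads from the stretch that such a pair shares cannot be told apart.

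Sox9, the master factor of cartilage, had close levels in the chondrocyte-like cells of the 3 libraries. Levels are in CPM, the UMIs of a gene scaled to the same total of UMIs in every class and library. Sox9 was at 782 CPM (767 to 797) in YKL, 718 CPM (704 to 733) in PTH and 764 CPM (754 to 775) in Control, and the PTH interval lay below those of YKL and Control. Chondrocytes held 98.5%, 93.3% and 93.1% of the Sox9 UMIs of all kept cells in YKL, PTH and Control. In the osteoblast lineage-like cells it was at 229.7 CPM (183 to 285) in YKL, 128 CPM (107 to 152) in PTH and 193 CPM (145 to 253) in Control, below the chondrocytes of the same library each time. The level in osteoblast lineage-like cells was 0.294 (0.234 to 0.365) of that in chondrocytes in YKL, 0.178 (0.149 to 0.212) in PTH and 0.253 (0.189 to 0.331) in Control.

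Sox6, a partner of SOX9, was likewise close between libraries, at 113 CPM (107 to 118) in YKL, 123 CPM (117 to 129) in PTH and 118 CPM (114 to 122) in Control chondrocytes. Sox5, the other partner, was at 33.9 CPM (30.8 to 37.1) in YKL, 55.2 CPM (51.3 to 59.3) in PTH and 54.8 CPM (52.0 to 57.7) in Control chondrocytes. The YKL library was the low one for Sox5, and PTH and Control lay together. In the osteoblast lineage-like cells the level of Sox6 was 0.295 (0.152 to 0.517) of the chondrocyte level in YKL, 0.407 (0.302 to 0.538) in PTH and 0.279 (0.127 to 0.530) in Control. For Sox5, with 6, 31 and 3 UMIs in the osteoblast lineage-like cells of YKL, PTH and Control, it was 0.490 (0.179 to 1.08) in YKL, 0.549 (0.371 to 0.787) in PTH and 0.200 (0.0411 to 0.584) in Control; the YKL interval held 1.

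Runx2 was highest in YKL and lowest in Control chondrocytes. It was at 111 CPM (106 to 117) in YKL, 89.1 CPM (84.1 to 94.3) in PTH and 69.8 CPM (66.6 to 73.1) in Control, and the 3 intervals did not meet. Sp7 was at 62.4 CPM (58.3 to 66.8) in YKL, 50.6 CPM (46.9 to 54.6) in PTH and 48.2 CPM (45.6 to 50.9) in Control; the intervals of PTH and Control overlapped and YKL was above both. Of the Runx2 UMIs of all kept cells, the chondrocytes held 93.4% in YKL, 70.7% in PTH and 85.7% in Control.

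Both bone factors were higher in the osteoblast lineage-like cells of each library than in its chondrocytes. Runx2 was at 213 CPM (168 to 266) in YKL, 272 CPM (241 to 306) in PTH and 215 CPM (164 to 277) in Control osteoblast lineage-like cells, which is 1.91 (1.5 to 2.41), 3.05 (2.67 to 3.48) and 3.08 (2.33 to 3.99) times the chondrocyte level of YKL, PTH and Control. Sp7 was at 105 CPM (74.4 to 144) in YKL, 154 CPM (131 to 181) in PTH and 120.2 CPM (82.8 to 169) in Control, or 1.69 (1.18 to 2.33), 3.05 (2.55 to 3.63) and 2.49 (1.71 to 3.52) times the chondrocyte level of YKL, PTH and Control. The YKL values of this class rest on 13 cells.

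Dlx5, an activator of osteoblast genes, was highest in PTH chondrocytes. It was at 53.5 CPM (49.7 to 57.6) in YKL, 62.5 CPM (58.4 to 66.9) in PTH and 45.8 CPM (43.3 to 48.5) in Control, and the 3 intervals did not meet. Its level in osteoblast lineage-like cells was 1.14 (0.708 to 1.74) times that in chondrocytes in YKL, 1.45 (1.16 to 1.80) in PTH and 1.83 (1.16 to 2.76) in Control. Dlx6, its neighbour in the genome, was at 13.2 CPM (11.3 to 15.3) in YKL, 10.4 CPM (8.72 to 12.2) in PTH and 13.0 CPM (11.6 to 14.4) in Control chondrocytes, with overlapping intervals.

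Dlx3, which acts in skin, teeth and bone, had 13 UMIs in YKL, 8 in PTH and 5 in Control chondrocytes, and 1, 4 and 4 UMIs in the osteoblast lineage-like cells of YKL, PTH and Control. The ratio of osteoblast lineage-like cells over chondrocytes was 2.85 (0.0672 to 19.0) in YKL, 6.55 (1.44 to 24.4) in PTH and 76.8 (15.2 to 357) in Control, all with wide intervals, and the one in YKL held 1. Msx2, a factor of cranial and limb skeletal patterning, had 0 UMIs in YKL, 1 in PTH and 0 in Control over all deposited barcodes; a count of 0 in the chondrocytes allows, at 3 UMIs of the class total, up to 0.224 CPM in YKL and 0.114 CPM in Control.

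**Figure D1:**
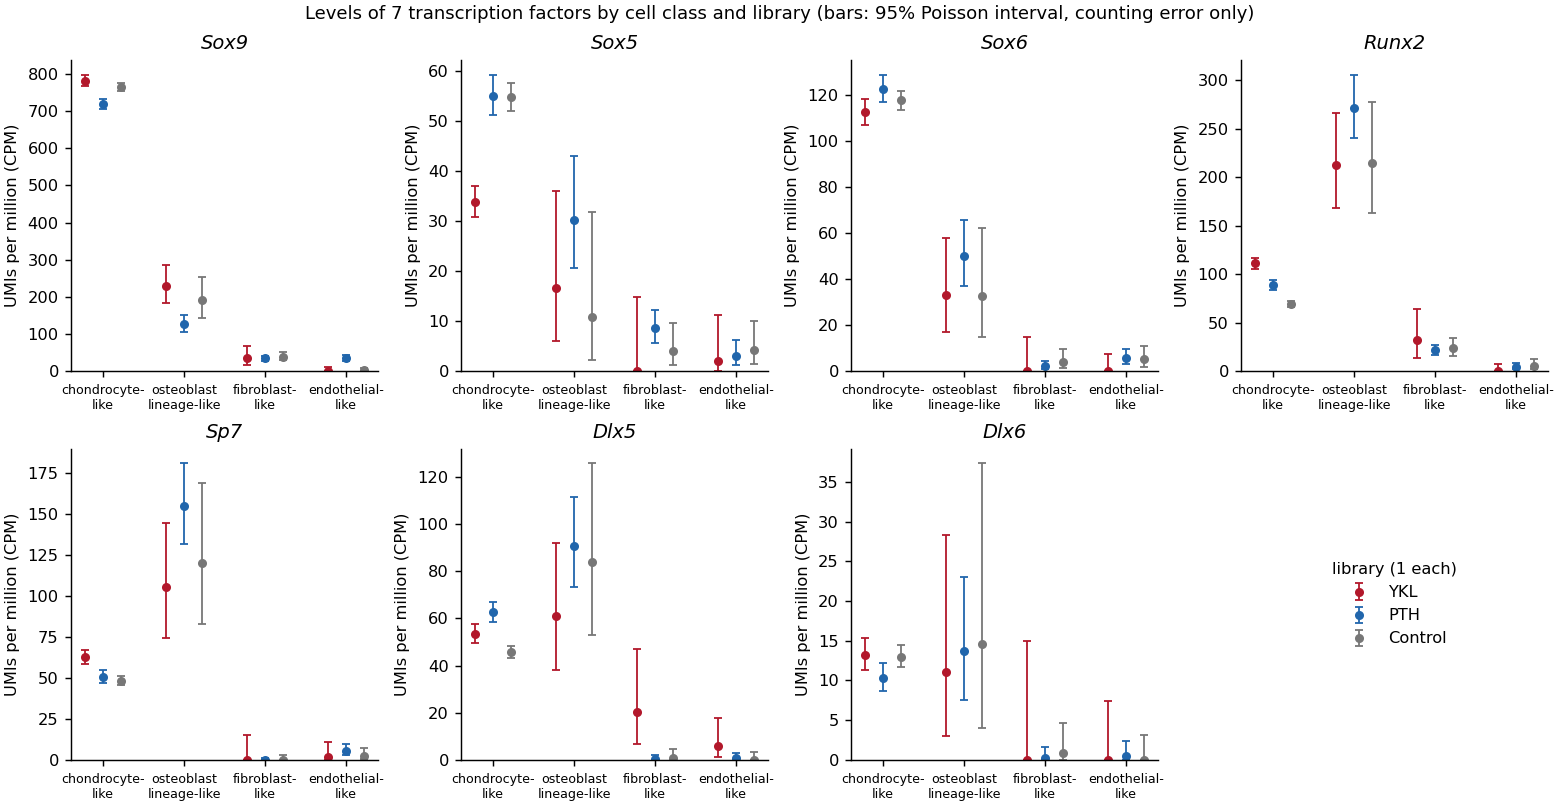
Level of 7 genes in 4 cell classes, in CPM (vertical axis), for the YKL, PTH and Control libraries from left to right, with 95% Poisson intervals. Sox9 in chondrocyte-like cells is at 782 CPM in YKL, 718 in PTH and 764 in Control, and Runx2 in osteoblast lineage-like cells reaches 272 CPM in PTH.

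Between YKL and Control chondrocytes, Runx2 was higher in YKL, with a ratio of 1.60 (1.49 to 1.71), and Sox5 was lower in YKL, with a ratio of 0.618 (0.555 to 0.687). These were the members past 1.5-fold, 1 of 7 in each direction. Of all 11596 genes compared, 9.33% were past it upwards and 9.44% downwards, so the count of members is near the background. The ratio was 1.29 (1.19 to 1.41) for Sp7, 1.17 (1.06 to 1.28) for Dlx5, 1.02 (0.999 to 1.05) for Sox9, 1.02 (0.843 to 1.22) for Dlx6 and 0.957 (0.899 to 1.02) for Sox6.

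Between PTH and Control chondrocytes no member was past 1.5-fold, where 5.99% of 11601 genes were past it upwards and 3.09% downwards, 9.08% in all. Dlx5 came nearest, at 1.37 (1.25 to 1.49), and Runx2 was at 1.28 (1.19 to 1.37). Dlx6 was at 0.799 (0.651 to 0.976), Sox9 at 0.940 (0.917 to 0.963), Sp7 at 1.05 (0.955 to 1.15), Sox6 at 1.04 (0.981 to 1.11) and Sox5 at 1.01 (0.920 to 1.10).

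Between YKL and PTH chondrocytes, Sox5 was the 1 member of 7 past 1.5-fold, lower in YKL with a ratio of 0.614 (0.545 to 0.691); 8.25% of 11009 genes were past it downwards and 6.29% upwards. Runx2 was at 1.25 (1.16 to 1.35), Sp7 at 1.23 (1.11 to 1.37), Dlx6 at 1.27 (1.01 to 1.60), Sox9 at 1.09 (1.06 to 1.12), Sox6 at 0.918 (0.856 to 0.985) and Dlx5 at 0.856 (0.774 to 0.947). Each library enters a pair of these comparisons, so they are not independent.

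These ratios compare unlike mixtures of chondrocytes. The cells fell into 10 chondrocyte-like clusters, made without the 9 genes and numbered with rising Col10a1, the collagen of hypertrophic cartilage; the numbers 5 and 8 belong to an osteoblast lineage-like and an unnamed cluster. Clusters 10, 11 and 12 held 78.4% of the YKL chondrocytes, clusters 4, 9 and 10 held 50.5% of those of PTH, and clusters 2, 6 and 7 held 52.1% of those of Control. With the clusters that have at least 20 cells in both libraries weighted equally, the ratio of YKL over Control was 1.08 for Runx2 and 0.907 for Sox5 over 5 clusters, so that neither stayed past 1.5-fold, and 1.54 for Sp7, which passed it. The ratio of PTH over Control was 1.01 for Runx2 and 1.39 for Dlx5 over 9 clusters. The ratio of YKL over PTH was 1.03 for Sox5 and 1.66 for Sp7 over 5 clusters. For Sox9 it was 1.04 for YKL over Control, 1.01 for PTH over Control and 0.964 for YKL over PTH.

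**Figure D2:**
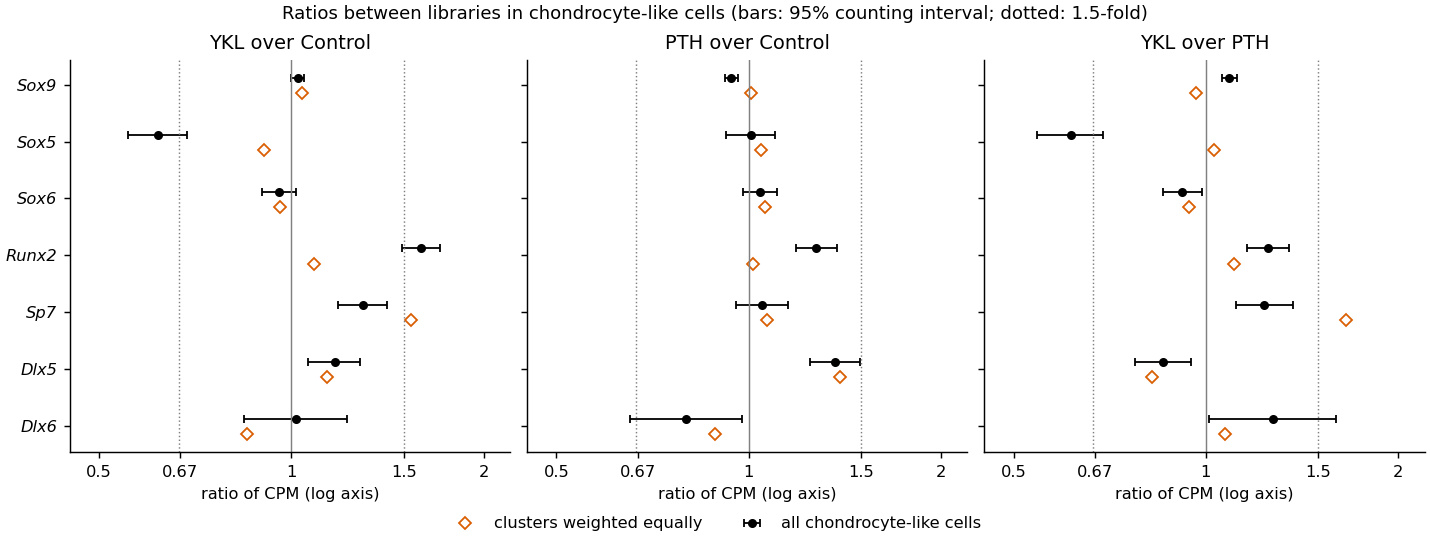
Ratio of CPM between libraries in chondrocyte-like cells (logarithmic axis) for 7 genes, over all such cells with a 95% counting interval and with clusters weighted equally. For YKL over Control, Runx2 is at 1.60 over all cells and 1.08 under equal weights, Sox5 at 0.618 and 0.907, and Sp7 at 1.29 and 1.54.

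Along the clusters the members did not all run together. In all libraries pooled, Sox9 lay between 463 CPM in cluster 1 and 877 CPM in cluster 7, and was at 561 CPM in cluster 12, where Col10a1 reached 22739 CPM. Sox5 was at 61.4, 84.8, 104 and 67.2 CPM in clusters 1 to 4, which are led by Ucma, a cartilage matrix-associated protein, and at 28.6, 35.6 and 9.07 CPM in clusters 10, 11 and 12. It did not follow Col10a1 throughout: in cluster 9 Sox5 was at 55.4 CPM in YKL, 73.5 CPM in PTH and 61.0 CPM in Control. Sox6 lay between 84.4 CPM in cluster 1 and 143 CPM in cluster 10.

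Runx2 was at 47.8 CPM in cluster 2 and 41.9 CPM in cluster 4, and at 119 CPM in cluster 11 and 182 CPM in cluster 12, below the 249.6 CPM of the osteoblast cluster. It did not follow Col10a1 throughout: cluster 1, with 30.9 CPM of Col10a1, had 87.8 CPM of Runx2, and cluster 10, with 842 CPM of Col10a1, had 41.6 CPM. Sp7 was highest in cluster 9, at 85.2 CPM, and was at 25.9 CPM in cluster 10 and 34.7 CPM in cluster 12. Dlx5 lay between 36.2 CPM in cluster 1 and 71.0 CPM in cluster 12.

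Over the 9 chondrocyte clusters with at least 50 cells, Pearson's r of log2(CPM + 10) was -0.41 for Sox9 with Runx2, -0.64 for Sox5 with Runx2, -0.60 for Sox6 with Runx2 and -0.78 for Sox5 with Dlx5. With Sp7 it was 0.40 for Sox9, 0.39 for Sox5 and 0.28 for Sox6. It was 0.83 for Sox9 with Sox6, 0.75 for Dlx5 with Dlx6 and 0.095 for Runx2 with Sp7. Over all 22 clusters of that size it was 0.62 for Sox9 with Runx2 and 0.87 for Sox9 with Sp7. The clusters share libraries and depth, and these values are a description.

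**Figure D3:**
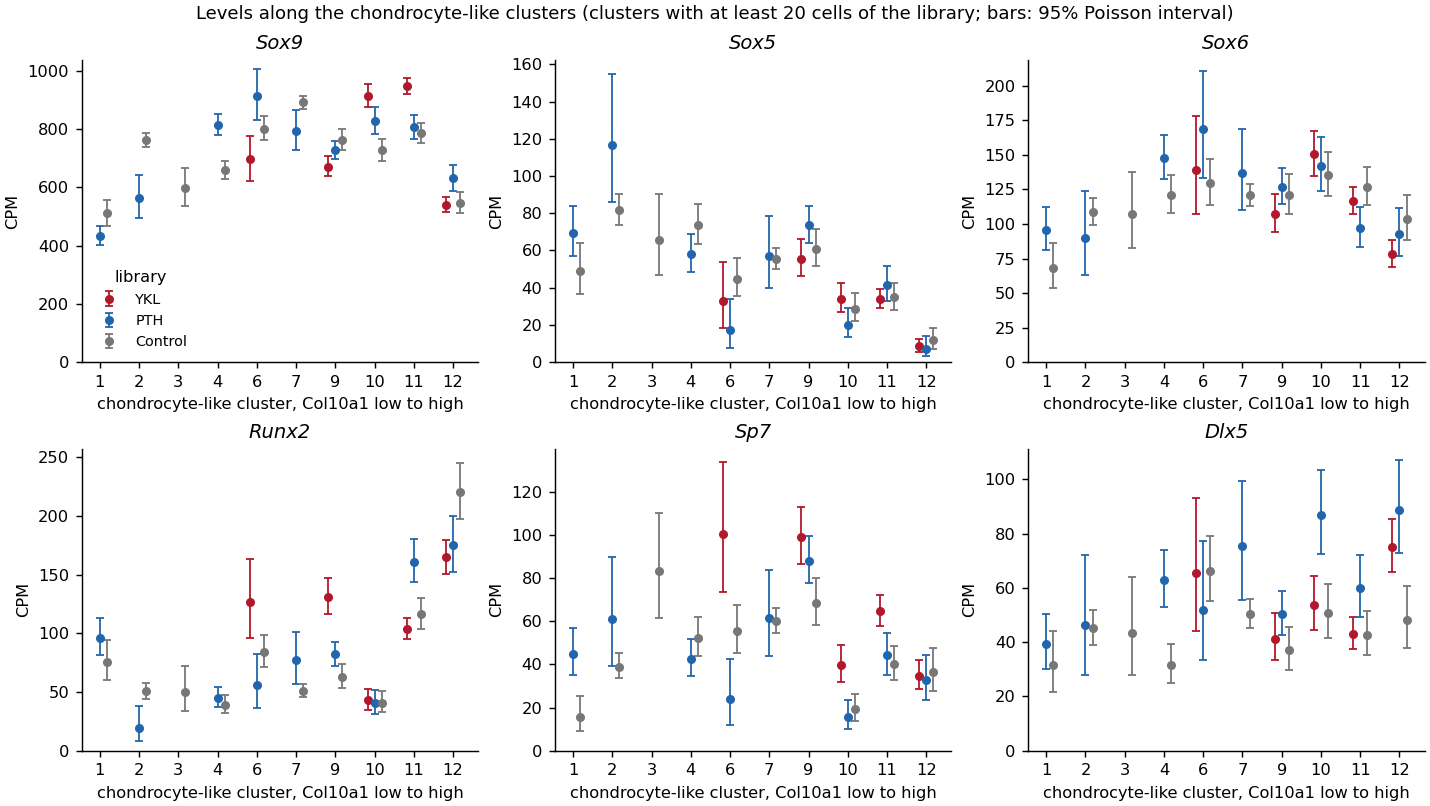
Level in CPM (vertical axis) of the genes in the chondrocyte-like clusters (horizontal axis, Col10a1 from low to high), with 95% Poisson intervals, for the YKL, PTH and Control libraries. Over all libraries Sox5 is at 84.8 CPM in cluster 2 and 9.07 CPM in cluster 12, while Runx2 is at 47.8 CPM in cluster 2 and 182 CPM in cluster 12.

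Within clusters, Sp7 was higher in YKL than in Control in 3 of the 4 clusters with at least 50 cells in both. It was at 99.0 CPM in YKL and 68.5 CPM in Control in cluster 9, a ratio of 1.44 (1.18 to 1.78). In cluster 10 it was at 39.5 CPM in YKL and 19.2 CPM in Control, a ratio of 2.06 (1.40 to 3.08), and in cluster 11 at 64.8 CPM in YKL and 40.1 CPM in Control, a ratio of 1.62 (1.29 to 2.03). In cluster 12 the ratio was 0.95 (0.681 to 1.34).

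Runx2 went in different directions in different clusters. It was at 131 CPM in YKL and 63.1 CPM in Control in cluster 9, and at 165 CPM in YKL and 221 CPM in Control in cluster 12. In clusters 10 and 11 the ratios of YKL over Control were 1.06 (0.782 to 1.44) and 0.892 (0.773 to 1.03). Runx2 was at 161 CPM in PTH and 116 CPM in Control in cluster 11 and at 175 CPM in PTH and 221 CPM in Control in cluster 12.

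Dlx5 was higher in PTH than in Control in each of the 6 clusters with at least 50 cells in both, with an interval above 1 in 5 of them. It was at 62.9 CPM in PTH and 31.6 CPM in Control in cluster 4, a ratio of 1.99 (1.5 to 2.66). In cluster 10 the ratio was 1.71 (1.31 to 2.23) and in cluster 12 it was 1.84 (1.36 to 2.50). It was 1.36 (1.04 to 1.79) in cluster 9 and 1.40 (1.07 to 1.84) in cluster 11, and in cluster 1, where it was 1.25 (0.806 to 1.95), the interval held 1. In cluster 6, with fewer cells, it was at 52.0 CPM in PTH and 66.3 CPM in Control.

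At full depth, most chondrocyte-like cells held a UMI of Sox9 together with one of Runx2 or Sp7. Such a pair was found in 372 of 430 YKL cells (86.5%), 518 of 728 PTH cells (71.2%) and 1141 of 1584 Control cells (72.0%). A pair of UMIs does not measure the activity of a program. Doublets may remain, and the part of free RNA in these shares was not tested. All of Sox9, Sox5, Sox6, Runx2 and Sp7 were found in 30.2% (25.9 to 34.8) of YKL, 16.2% (13.6 to 19.1) of PTH and 14.6% (12.9 to 16.5) of Control chondrocytes. The libraries differ in depth, with a median of 29868 UMIs in YKL, 17809.5 in PTH and 16353.5 in Control chondrocytes. Each cell was therefore thinned to 2000 UMIs, which left out 13 YKL, 19 PTH and 25 Control chondrocytes with fewer.

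In the thinned cells the share with both was 20.1% (84 of 417, interval 16.4 to 24.3) in YKL, 14.0% (99 of 709, 11.5 to 16.7) in PTH and 14.2% (222 of 1559, 12.5 to 16.1) in Control. Thinning takes UMIs at random, and in the draw made here the YKL interval lay above that of Control and the PTH share within it. These chondrocytes sit in unlike clusters, and within each of the 4 clusters with at least 50 thinned cells in both, the YKL and Control intervals overlapped. The share with both was 19.2% (9.63 to 32.5) in YKL and 16.5% (10.4 to 24.4) in Control in cluster 9, 12.9% (6.64 to 22) in YKL and 6.21% (2.88 to 11.5) in Control in cluster 10, 23.2% (16.1 to 31.6) in YKL and 22.2% (15.5 to 30.2) in Control in cluster 11, and 21.7% (14.6 to 30.4) in YKL and 15.9% (9.54 to 24.2) in Control in cluster 12. With the mitochondrial limit at 20% the shares were 15.5% in YKL, 16.3% in PTH and 14.2% in Control, and the YKL share then lay between those of PTH and Control. That setting held 433 YKL chondrocytes where the main one held 430, and its cells were clustered and thinned anew. The spread between random draws was not measured.

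Sox9 alone was found in 47.2% of YKL, 53.9% of PTH and 56.4% of Control chondrocytes, and Runx2 or Sp7 alone in 8.15%, 8.32% and 6.16% of YKL, PTH and Control cells. A Runx2 UMI was found in 19.4% (15.7 to 23.6) of YKL, 16.6% (14.0 to 19.6) of PTH and 11.7% (10.1 to 13.4) of Control chondrocytes, and a Sox9 UMI in 67.4%, 67.8% and 70.7% of YKL, PTH and Control. In endothelial-like cells, which should lack these genes, the share with both was 0 of 46 in YKL, 3 of 253 in PTH and 1 of 142 in Control, at a median of 7707.5, 6062 and 5512 UMIs before thinning.

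**Figure D4:**
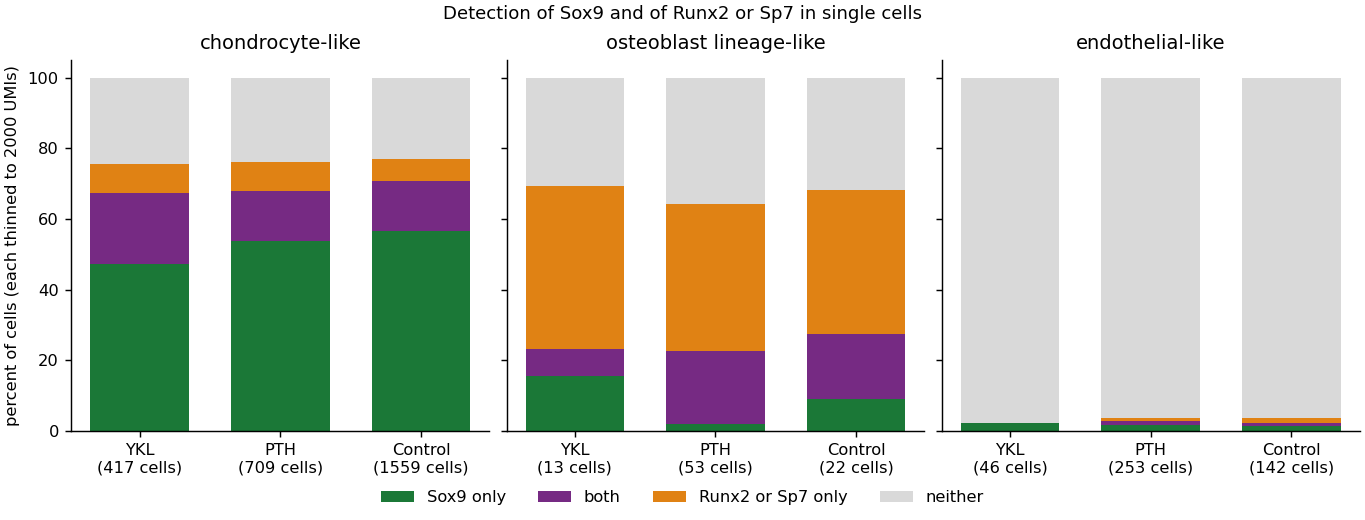
Percent of cells (vertical axis, each cell thinned to 2000 UMIs) with a UMI of Sox9 only, of Sox9 and of Runx2 or Sp7 (both), of Runx2 or Sp7 only, or of neither, by cell class, for the YKL, PTH and Control libraries. Both are found in 20.1% of YKL, 14.0% of PTH and 14.2% of Control chondrocytes, and neither in 96.6% of endothelial-like cells.

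Finding Sox9 in a chondrocyte went with no clear difference in finding a bone factor. In YKL, Runx2 or Sp7 was found in 29.9% (24.6 to 35.6) of chondrocytes with a Sox9 UMI and 25% (18 to 33.1) of those without one. The shares were 20.6% (17.1 to 24.5) and 25.9% (20.3 to 32.1) in PTH, and 20.1% (17.8 to 22.6) and 21.0% (17.4 to 25) in Control. The intervals overlapped in each library, and the direction differed between libraries. For Sox6 the shares in cells with and without it were 24.4% and 29.4% in YKL, 20.8% and 22.7% in PTH, and 24.4% and 19.4% in Control. A coupling or an exclusion within these intervals was not detectable at this depth.

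In the osteoblast lineage-like cells Sox9 and the bone factors were also found together. At full depth both were found in 7 of 13 YKL, 35 of 55 PTH and 11 of 22 Control cells. After thinning, 16 of 88 cells of all libraries held both, which is 18.2% (10.8 to 27.8), while 37 held a bone factor alone and 5 Sox9 alone. Per 1000 UMIs of Col2a1, the main cartilage collagen transcript, these cells had 34.9 (27.7 to 43.5) UMIs of Sox9 in YKL, 48.0 (39.9 to 57.2) in PTH and 87.3 (64.7 to 116) in Control, above the chondrocytes of each library. In the endothelial-like cells there were 6.17 (0.155 to 34.9) in YKL, 22.8 (18 to 28.4) in PTH and 7.01 (2.27 to 16.4) in Control, where the chondrocytes had 21.4, 22.5 and 24.2 in YKL, PTH and Control. The endothelial interval held the chondrocyte value in YKL, where it rests on 1 UMI, and in PTH, and lay below it in Control. In the osteoblast lineage-like cells Col2a1 itself was at 6573 CPM in YKL, 2670 CPM in PTH and 2212 CPM in Control. The parts of free RNA, doublets and mixed clusters in finding Sox9 with a bone factor in these cells were not tested.

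Chondrocytes that held both had higher summed levels of several hypertrophic genes than those with Sox9 alone. Cells with both numbered 84 in YKL, 99 in PTH and 222 in Control, beside 197, 382 and 880 with Sox9 alone. The intervals of these ratios count UMIs summed over the cells and do not cover the spread between cells. Col10a1 was at 10851 CPM in cells with both and 7411 CPM in cells with Sox9 alone in YKL, a ratio of 1.46 (1.38 to 1.55). In PTH it was at 5944 CPM in cells with both and 1999 CPM in cells with Sox9 alone, a ratio of 2.97 (2.75 to 3.21), and in Control at 4333 CPM in cells with both and 2528 CPM in cells with Sox9 alone, a ratio of 1.71 (1.62 to 1.81). Ihh, the hedgehog signal of prehypertrophic cells, had ratios of 1.29 (1.01 to 1.65) in YKL, 1.96 (1.52 to 2.51) in PTH and 1.77 (1.39 to 2.24) in Control. Ibsp, a bone matrix gene also made by hypertrophic chondrocytes, had ratios of 1.10 (1.03 to 1.19) in YKL, 2.05 (1.94 to 2.18) in PTH and 1.53 (1.45 to 1.63) in Control.

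Of the 9 hypertrophic genes, 2 in YKL, 6 in PTH and 3 in Control were at least 1.5-fold higher in cells with both, and none of them 1.5-fold lower. Of all genes compared, 3.66% in YKL, 6.85% in PTH and 4.13% in Control were that much higher, and 7.53%, 8.21% and 6.78% in YKL, PTH and Control that much lower. The gene lists were chosen with earlier results of these data known, so these counts are a description. The median ratio of the hypertrophic list was 1.29 in YKL, 1.58 in PTH and 1.33 in Control, beside 1.02, 0.922 and 1.04 for the cartilage matrix list in YKL, PTH and Control. Over the Control clusters with at least 50 thinned cells, the share with both did not follow Col10a1 throughout: it was 12% in cluster 1, 14.7% in cluster 2, 11.2% in cluster 4, 13.8% in cluster 6, 15.2% in cluster 7, 16.5% in cluster 9, 6.21% in cluster 10, 22.2% in cluster 11 and 15.9% in cluster 12, and the part of cluster membership in these ratios was not tested.

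Among the cartilage matrix genes, 2 of 14 in YKL, 0 of 15 in PTH and 1 of 16 in Control were at least 1.5-fold higher in cells with both, and 0, 1 and 0 in YKL, PTH and Control that much lower. Those past it, named after their values were seen, were Chad at 1.81 (1.45 to 2.25) and Ucma at 1.51 (0.991 to 2.29) in YKL, Ucma at 0.655 (0.556 to 0.769) in PTH and Matn1 at 1.54 (1.01 to 2.30) in Control. Col2a1 had ratios of 1.08 (1.05 to 1.11) in YKL, 1.02 (0.992 to 1.05) in PTH and 1.02 (1.00 to 1.04) in Control, and Acan of 0.940 (0.870 to 1.02), 0.991 (0.924 to 1.06) and 1.04 (0.992 to 1.09) in YKL, PTH and Control. Col1a1, the main collagen of bone, had ratios of 1.10 (1.00 to 1.21) in YKL, 1.09 (1.02 to 1.17) in PTH and 1.06 (1.00 to 1.12) in Control. Bglap, an osteoblast gene, had 11 UMIs in cells with both and 10 in cells with Sox9 alone in YKL, 3 and 8 in PTH, and 2 and 1 in Control.

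**Figure D5:**
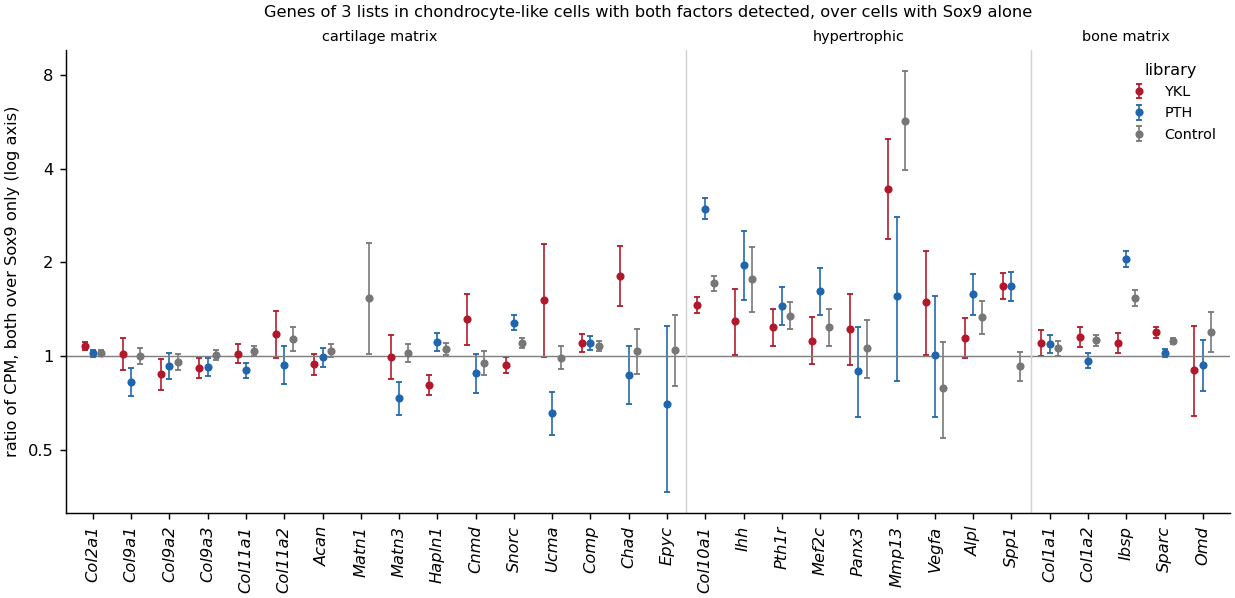
Ratio of CPM (logarithmic axis) in thinned chondrocyte-like cells with both Sox9 and Runx2 or Sp7 detected over cells with Sox9 alone, with 95% counting intervals, for the YKL, PTH and Control libraries. Col10a1 lies at 1.46 in YKL, 2.97 in PTH and 1.71 in Control, and Col2a1 at 1.08, 1.02 and 1.02.

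Among 35 other regulators of skeletal cells, 29 could be compared between YKL and Control chondrocytes; in YKL 6 of them were past 1.5-fold upwards and 4 downwards, where 9.33% and 9.44% of all genes were, with a median log2 ratio of 0.06. Foxa2, a forkhead factor of hypertrophic chondrocytes, was at 7.46 CPM in YKL and 1.21 CPM in Control, a ratio of 6.14 (4.09 to 9.45). Gli1, a target of hedgehog signalling, was lower, at 1.27 CPM in YKL and 5.62 CPM in Control, as was Scx, a tendon factor, at 3.73 CPM in YKL and 10.6 CPM in Control.

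Between PTH and Control, 27 of these regulators were compared, with 2 higher and 1 lower in PTH, beside 5.99% and 3.09% of all genes, so these counts are near the background. Msx1, the relative of Msx2, was at 7.54 CPM in PTH and 3.91 CPM in Control. Twist2, which restrains RUNX2, was at 0.970 CPM in PTH and 1.90 CPM in Control. Between YKL and PTH, 27 were compared, with 3 higher and 3 lower in YKL, where 6.29% and 8.25% of all genes were; the ratio was 5.88 for Foxa2, 1.60 for Sox4, 0.202 for Gli1 and 0.306 for Scx.

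The matrix lists were counted over the same unlike mixtures of clusters, whose part in the counts was not tested. These lists and the regulators were chosen with earlier results of these data known. Their counts beside the shares of all genes are therefore a description and no test of enrichment. The median log2 ratios were 1.11, 0.21 and 0.88 for the hypertrophic, -0.12, -0.11 and -0.07 for the cartilage matrix and 0.98, 0.59 and 0.15 for the bone matrix list, in YKL over Control, PTH over Control and YKL over PTH. Those of the 7 members compared were 0.03, 0.06 and 0.12, and those of all genes -0.03, 0.00 and -0.01. Of 9 hypertrophic genes, 9 were at least 1.5-fold higher in YKL than in Control, 1 was higher in PTH than in Control, and 8 were higher in YKL than in PTH. Of all genes, 9.33%, 5.99% and 6.29% were that much higher in these comparisons. Ihh was at 540.0 CPM in YKL, 275 CPM in PTH and 163 CPM in Control, and Mmp13, a collagenase of late hypertrophic cells, at 349, 96.6 and 104 CPM in YKL, PTH and Control.

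Of 16 cartilage matrix genes, 1 was higher and 4 were lower in YKL than in Control, 1 was higher and 1 lower in PTH than in Control, and 1 was lower in YKL than in PTH. Of all genes, 9.33% were higher and 9.44% lower in YKL than in Control, and 5.99% and 3.09% in PTH than in Control. Between YKL and PTH, 8.25% were lower in YKL. The counts of 1 of 16 are near these shares. Chad was at 666 CPM in YKL, 685 CPM in PTH and 410.4 CPM in Control, and Ucma at 220.5, 1441 and 1718 CPM in YKL, PTH and Control. Epyc was at 98.8 CPM in YKL and 178 CPM in Control, and Matn1 at 29.5 CPM in PTH and 49.7 CPM in Control.

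Of 10 bone matrix genes, 6 were higher and 1 lower in YKL than in Control, 4 of 7 compared were higher in PTH than in Control, and 4 were higher and 1 lower in YKL than in PTH. Of all genes, 9.33% were higher and 9.44% lower in YKL than in Control, and 5.99% were higher in PTH than in Control. Between YKL and PTH, 6.29% were higher and 8.25% lower in YKL. Dmp1, a matrix gene of late osteoblasts and osteocytes, had 212 UMIs in YKL, 13 in PTH and 9 in Control chondrocytes. Bglap2 had 155 UMIs in YKL and 7 in Control, and Ifitm5 152 in YKL and 25 in PTH. Bglap was at 20.2 CPM in PTH and 4.52 CPM in Control, and Ibsp at 5987 CPM in PTH and 2813 CPM in Control. Omd was at 341 CPM in YKL, 919 CPM in PTH and 515 CPM in Control.

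The chondrocyte-like cells also carried markers of other cells. The summed level of 11 osteoblast lineage markers was 13402 CPM in YKL, 12147 CPM in PTH and 7191 CPM in Control chondrocytes, with all of them detected in each library. That of 6 erythroid markers was 885, 359 and 2403 CPM in YKL, PTH and Control. That of 9 neutrophil markers was 3.58, 17.8 and 106 CPM, with Ltf, Mmp8 and Cxcr2 at 0 in YKL. The part of these in the differences between libraries was not tested. Clusters 8 and 13 had chondrocyte markers together with haemoglobin and were left unnamed; they held 1 and 7 YKL, 9 and 3 PTH, and 95 and 26 Control cells.

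Over the 22 clusters of at least 50 cells, the genes with the pattern most like each factor, by Pearson's r of log2(CPM + 10) among 6138 genes, were Zfp385b (0.99), Prkg2 (0.97) and Gramd2 (0.97) for Sox9, and Spp1 (0.80), Tmie (0.79) and Dhx58os (0.77) for Runx2. They were Tmie (0.95), Sdk2 (0.94) and Alpl (0.94) for Sp7, and Mdfi (0.95), Tmie (0.95) and Alpl (0.95) for Dlx5.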

How the data were processed

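Whole-number UMI counts were deposited for every gene in every barcode, and the file headers name Cell Ranger 4.0.0 as the tool that made them; the submitters' processing notes also name mm10 and Seurat. The 3 libraries held 1500 YKL, 5286 PTH and 8021 Control barcodes with 19424073, 33981167 and 55250651 UMIs. The 9 genes and all gene lists were chosen with earlier results of these data known.

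The filters asked for 500 or more detected genes and no more than 10% of UMIs from mitochondrial genes. Scrublet at its own threshold marked 5 of 1041 YKL, 1 of 4301 PTH and 45 of 4918 Control barcodes, which is 0.480%, 0.0233% and 0.915%. In YKL and PTH it marked too few to have worked, and the Control share was also low, so doublets may remain in every library. Cells were clustered in 2 rounds without the 9 genes (scanpy 1.11.5, leidenalg 0.10.2, resolution 0.8), giving 26 clusters named from marker lists. Class levels are summed counts with exact Poisson intervals, shares have exact Clopper-Pearson intervals and ratios exact conditional binomial intervals (scipy 1.17.1), all covering counting error only. A gene needed 50 UMIs over a pair of libraries, and 1.5-fold was the size named. No p-value was computed, since each group is 1 library. The ratio and co-detection steps were run on simulated counts. These held no doublets, free RNA or spread between clusters or animals, so they say nothing about such errors.

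Named were the 9 genes, up to 4 genes of each other list per comparison (the 2 furthest past 1.5-fold each way by the interval bound nearest to 1), 7 genes fixed for the detection states, and the 3 genes most like Sox9, Runx2, Sp7 and Dlx5 among genes of at least 50 CPM in a cluster, without predicted, ribosomal and mitochondrial genes. Alternatives varied the filters, doublet removal, clustering, thinning, scaling, minimum count and cluster weights. A few genes that the list counts include are not reported here by name.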

Additional observations from a re-analysis of the deposited data

Results flagged for a closer look

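Within the chondrocyte clusters, some genes stood higher in one library in one cluster and lower in another, with counting intervals on opposite sides of 1. The difference between clusters was not tested, since each group is 1 library. Runx2 in cluster 9 was at 131 CPM in YKL and 63.1 CPM in Control (ratio 2.08, 1.70 to 2.55), and in cluster 12 at 165 CPM in YKL and 221 CPM in Control (ratio 0.747, 0.650 to 0.860). Runx2 in cluster 9 was also at 131 CPM in YKL and 82.1 CPM in PTH (ratio 1.60, 1.34 to 1.90), and in cluster 11 at 104 CPM in YKL and 161 CPM in PTH (ratio 0.646, 0.559 to 0.747). Dlx6 in cluster 9 was at 18.9 CPM in YKL and 9.67 CPM in Control (ratio 1.96, 1.15 to 3.40), and in cluster 10 at 9.65 CPM in YKL and 22.1 CPM in Control (ratio 0.437, 0.248 to 0.748). Sox5 in cluster 10 was at 34.0 CPM in YKL and 20.2 CPM in PTH (ratio 1.68, 1.09 to 2.66), and in cluster 9 at 55.4 CPM in YKL and 73.5 CPM in PTH (ratio 0.754, 0.601 to 0.943).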

How the results depend on the processing

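Over 294 recomputed values of 21 member ratios, 272 stayed within the counting interval, 21 moved outside it and 1 reversed: with clusters weighted equally, Sox5 in YKL over PTH was at 1.03. Under equal weights of clusters, 9 of the 21 ratios did not stay within the interval, the reversed one among them. The count of members past 1.5-fold in YKL over Control was 2, and 1 with equal weights, where Sp7 took the place of Runx2 and Sox5, and 3 at a minimum of 10 UMIs and 3 at a minimum of 1 UMI. In YKL over PTH it was 1, and 0 at a mitochondrial limit of 5%, 2 at a minimum of 10 UMIs and 2 at a minimum of 1 UMI; with equal weights it was 1, Sp7 in place of Sox5. In PTH over Control it was 0, and 1 at a minimum of 10 and 1 at a minimum of 1 UMI, and Dlx3 was the gene added at each lower minimum.

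The share of chondrocytes with both Sox9 and Runx2 or Sp7 depends on depth by construction. It was 6.76% in YKL, 6.73% in PTH and 5.57% in Control with cells thinned to 1000 UMIs, 47.4% in YKL, 39.9% in PTH and 36.5% in Control at 5000 UMIs, and 67.9% in YKL, 45.3% in PTH and 38.1% in Control where at least 2 UMIs were asked for in unthinned cells. It was 16.8% in PTH at a mitochondrial limit of 5% and 15.5% in YKL at a limit of 20%. These settings also clustered the cells and drew the thinned UMIs anew. The parts of the filter, the clustering and the random draw were not tested. The alternative that counts the haemoglobin-rich clusters as chondrocytes was chosen after seeing the data. No paired analysis was possible because each group is 1 library.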

Other observations

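Some of the factors were also found outside cartilage and bone. In 148 pericyte or smooth muscle-like cells of all libraries, with 7 UMIs of Sp7, Sox5 was at 81.8 CPM (6 UMIs, interval 30 to 178) in YKL, 83.7 CPM (40 UMIs, interval 59.8 to 114) in PTH and 33.8 CPM (23 UMIs, interval 21.5 to 50.8) in Control. In 57 Schwann or glial-like cells, of which 1 came from YKL, Runx2 was at 60.9 CPM (17 UMIs, interval 35.5 to 97.6) in PTH and 111 CPM (17 UMIs, interval 64.6 to 178) in Control, and Sox6 at 89.6 CPM (25 UMIs, interval 58.0 to 132) in PTH and 45.7 CPM (7 UMIs, interval 18.4 to 94.1) in Control, with 0 UMIs of Sp7 and 5 of Sox9. In 423 fibroblast or mesenchymal progenitor-like cells, Sox9 was at 36.0 CPM (174 UMIs, interval 30.9 to 41.8) and Runx2 at 22.8 CPM (110 UMIs, interval 18.7 to 27.4), while Sp7 had 0 UMIs, a count that allows, at 3 UMIs of the class total, up to 0.621 CPM.

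In the tendon-like cells, of which 238 came from PTH and 2 from Control, Sox9 was at 52.1 CPM (212 UMIs, interval 45.3 to 59.6) in PTH and Sp7 had 2 UMIs there. The endothelial-like cells had Sox9 at 2.01 CPM in YKL, 35.4 CPM in PTH and 4.30 CPM in Control, with Col2a1 at 326, 1556 and 613 CPM in YKL, PTH and Control. Per 1000 UMIs of Col2a1, the fibroblast or mesenchymal progenitor-like cells had 132 (58.0 to 266) UMIs of Sox9 in YKL, 358 (287 to 443) in PTH and 40 (29.3 to 53.4) in Control, above the 21.4, 22.5 and 24.2 of the YKL, PTH and Control chondrocytes. The part of free RNA in the levels of the tendon, pericyte and Schwann classes was not tested.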
